A study of Homo sapiens with 4 samples.

Results

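XRCC5, UGDH and FRMD5 are 3 human genes whose transcript ends were divided almost evenly between the most 3' poly(A) region and the regions near it upstream. A poly(A) region is a short stretch of genome in which reads that end at a poly(A) tail were collected, and it marks where a transcript was cleaved and polyadenylated. The members were every region of the deposited table on the strand of the gene and inside an hg19 window: 216973 to 217073 kb on the plus strand of chromosome 2 for XRCC5, 39499 to 39531 kb on the minus strand of chromosome 4 for UGDH, and 44161 to 44489 kb on the minus strand of chromosome 15 for FRMD5. These windows held 17 of the 31081 regions, 7 for XRCC5, 5 for UGDH and 5 for FRMD5. The gene names come from the windows, because the table names no gene.

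The study sequenced poly(A) sites in a single group, DICER(ex5) cells with hypomorphic Dicer status, in 4 libraries described as biological quadruplicates. The line was derived from HCT116 colon cancer cells, and Dicer is the enzyme that releases mature microRNAs from their precursors. The sources used here do not give whether the line is a single clone or whether each library came from a culture grown on its own day. The series has no parental or other control group, so every comparison is between regions or between libraries, and none shows an effect of the Dicer change. The libraries held 2163977 to 5713530 reads.

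Most human genes can be cleaved and polyadenylated at more than one place. Use of an upstream site inside the last exon shortens the 3' UTR, which can remove binding sites for microRNAs and RNA-binding proteins while leaving the protein unchanged. Use of a site further inside the gene, such as one in an intron, ends the transcript before the later exons. XRCC5 encodes Ku80, which together with Ku70 binds broken DNA ends at the start of non-homologous end joining. UGDH encodes UDP-glucose dehydrogenase, which makes the UDP-glucuronic acid used for glycosaminoglycans and for glucuronidation. FRMD5 encodes a FERM domain protein found at cell-cell junctions.

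The members were chosen by their share of reads in the most 3' region, so the size of that share is a description here and was not tested. Regions of a strand within 5 kb of each other were joined into a locus. A region passed if the libraries together gave it 10 reads or more and it made up 5% of its locus or more. The distal share is the most 3' passing region's percentage of all reads in passing regions. Among the 2077 loci that had several passing regions and 100 reads or more in each library, the mean distal shares of XRCC5, FRMD5 and UGDH were the first, the third and the fifth closest to 50%. UGDH lay 0.329 percentage points from 50%. The next locus, on the plus strand of chromosome 15 (72875801 to 72878910), lay 0.373 points away at 49.6% ± 10.2, and the one after it, on the minus strand of chromosome 1 (150190710 to 150195546), had 50.4% ± 2.49 (SD, n = 4). A mean share within 5 points of 50% was found at 117 of the 2077 loci (5.63%).

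XRCC5 had the simplest division, with 2 strong regions and almost nothing else at its end. The upstream one lay at chr2:217070101-217070168 and the most 3' one at chr2:217070976-217071028, with 3' ends 860 bases apart. That distance was at the 54.6th percentile among the 1163 of the 2077 loci that had exactly 2 passing regions, whose median was 702 bases. Both regions were wide, 68 and 53 bases against a median of 27 over all regions. A weak region between them, at chr2:217070209-217070232, held 318 reads or 1.85% of the locus and did not pass the 5% minimum.

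The upstream XRCC5 region was read 2555, 1008, 2943 and 2062 times in libraries 1 to 4, and the most 3' region 2647, 1251, 2653 and 1746 times. The most 3' region therefore had more reads than the upstream one in libraries 1 and 2 and fewer in libraries 3 and 4. Its level was 508, 578, 464 and 438 CPM (counts relative to all reads of the library), a mean of 497.1 ± 61.2. The upstream region gave 490.3, 466, 515 and 518 CPM, a mean of 497.2 ± 24.3 (SD, n = 4). The means were almost equal, while the most 3' region varied more between libraries than the upstream one.

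**Figure D1:**
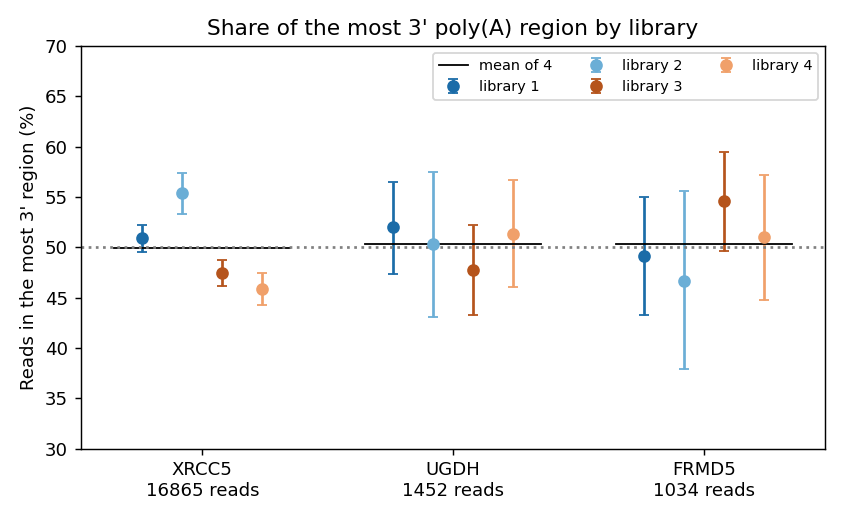
Percentage of reads in the most 3' poly(A) region at the XRCC5, UGDH and FRMD5 loci (points, one per library; bars, 95% Wilson intervals of counting error; black lines, means of the 4 libraries; dotted line, 50%). XRCC5 ran from 55.4% in library 2 to 45.9% in library 4 with narrow intervals, while the intervals of the 4 libraries overlapped one another at UGDH and at FRMD5.

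The distal share of XRCC5 was 50.9%, 55.4%, 47.4% and 45.9% in libraries 1 to 4, a mean of 49.9% ± 4.23 (SD, n = 4). The 95% Wilson intervals were 49.5% to 52.2% in library 1, 53.3% to 57.4% in library 2, 46.1% to 48.7% in library 3 and 44.3% to 47.4% in library 4. Library 2 stood above 50%, libraries 3 and 4 below it, and the interval of library 1 held 50%. Such intervals cover counting error only. They treat reads as independent molecules and are too narrow if the reads include PCR copies. The even mean of XRCC5 thus combined libraries on both sides of 50%.

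Whether libraries differed in distal share was tested for each pair by a two-sided Fisher's exact test, after reads had been drawn at random so that every library matched the smallest one. The p-values were adjusted by Benjamini-Hochberg over the 5070 loci that had several passing regions and 100 reads or more. Differences are given from all reads and p-values from the thinned ones. XRCC5 passed the threshold of 0.05 in 3 of 6 pairs. The share was 9.53 points lower in library 4 than in library 2 (Fisher's exact test, adjusted p = 8.36e-09), and 14.3% of all loci were called in that pair. It was 7.97 points lower in library 3 than in library 2 (Fisher's exact test, adjusted p = 6.89e-05), with 15.7% of all loci called. It was 5.03 points lower in library 4 than in library 1 (Fisher's exact test, adjusted p = 0.00222), with 8.92% of all loci called. With another random draw of reads the last pair did not pass (adjusted p = 0.0723), and on the unthinned counts, where 18.0% of all loci were called, it did (4.20e-05).

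The other pairs gave no call at XRCC5. Libraries 1 and 3 differed by 3.48 points (Fisher's exact test, adjusted p = 0.181), with 9.85% of all loci called, and this pair passed on the unthinned counts (adjusted p = 0.00238), where 23.4% of all loci were called. Libraries 1 and 2 differed by 4.49 points (Fisher's exact test, adjusted p = 0.463), with 0.335% of all loci called. Libraries 3 and 4 differed by 1.56 points (Fisher's exact test, adjusted p = 0.995), with 0.0789% called. The called pairs of XRCC5 were thus pairs of libraries in which many other loci differed too. Such a test compares libraries and not conditions, and the part of preparation or batch in it was not tested.

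UGDH ended in 4 passing regions rather than 2, with 3' ends that spanned only 640 bases. Their span was at the 7.30th percentile of the 233 loci with 4 passing regions among the same 2077, whose median was 2698 bases. The most 3' region lay at chr4:39500366-39500398. The others ended 166, 567 and 640 bases upstream of it, at chr4:39500532-39500554, chr4:39500933-39500971 and chr4:39501006-39501048. A further region, at chr4:39501665-39501689 and 1299 bases upstream, held 51 reads or 3.39% of the locus and did not pass.

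The most 3' UGDH region was read 237, 90, 230 and 172 times in libraries 1 to 4, which gave 45.5, 41.6, 40.3 and 43.2 CPM. Its share was 52.0%, 50.3%, 47.7% and 51.3%, a mean of 50.3% ± 1.88 (SD, n = 4). The libraries lay within 4.26 points of each other, library 3 being the lowest. The balance was between 1 region and the sum of 3 others, not between a pair of equal sites.

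The region 567 bases upstream was the second strongest of UGDH, with 122, 58, 157 and 98 reads. Its share was 26.8%, 32.4%, 32.6% and 29.3% in libraries 1 to 4, a mean of 30.2% ± 2.78 (SD, n = 4). The regions 166 and 640 bases upstream were weaker, with 9.85% ± 0.338 and 9.57% ± 1.31 of the reads (SD, n = 4). The most 3' region had 1.68 ± 0.214 times the reads of the second strongest one (SD, n = 4), and more than it in each of the 4 libraries. With a minimum of 10% for a passing region, the 2 weaker regions dropped out and the distal share was 62.5%.

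**Figure D2:**
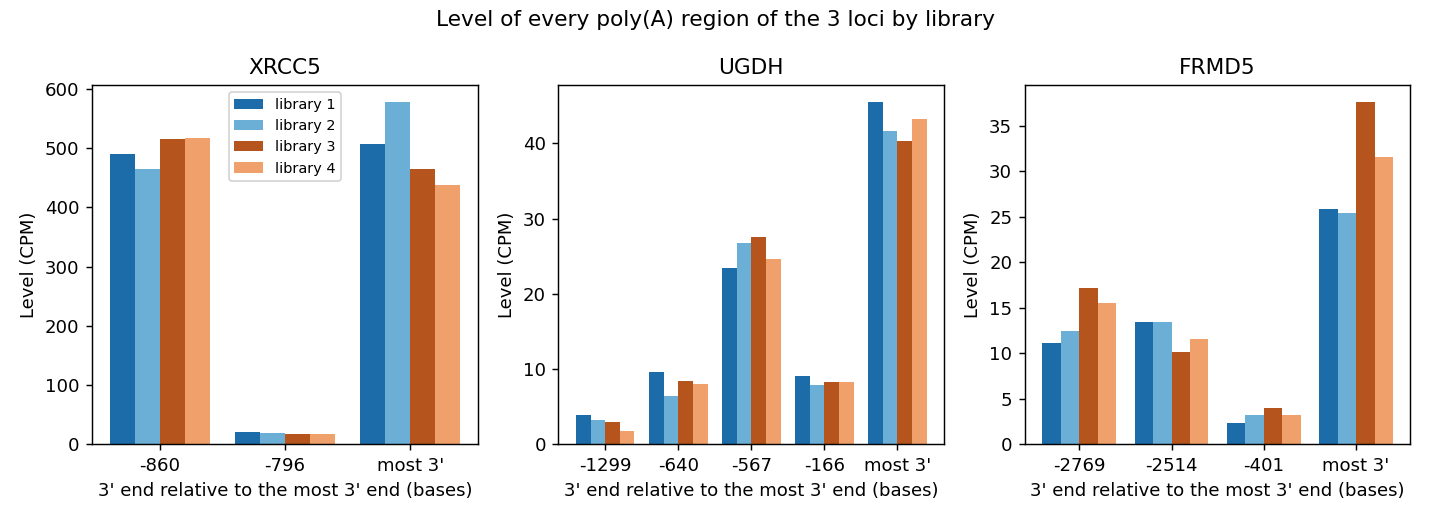
Level in CPM of every poly(A) region of the 3 loci, one bar per library, ordered from upstream to the most 3' end; the axis below gives the distance of each 3' end from the most 3' end, and the scales of the panels differ. XRCC5 shows 2 tall regions of about equal mean level (497.2 and 497.1 CPM), and in UGDH and FRMD5 1 region stands above several smaller ones.

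FRMD5 also had 4 passing regions, spread over 2769 bases, at the 51.1st percentile of the same 233 loci. The most 3' region lay at chr15:44162954-44162978 and the next at chr15:44163355-44163364, 401 bases upstream. The remaining regions, at chr15:44165468-44165500 and chr15:44165723-44165744, ended 2514 and 2769 bases upstream. The regions therefore formed 2 pairs whose nearest ends were 2113 bases apart. The region 401 bases upstream was the narrowest member at 10 bases and held 55 reads, 5.32% of the locus, just above the 5% minimum.

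The most 3' FRMD5 region was read 135, 55, 215 and 126 times in libraries 1 to 4, which gave 25.9, 25.4, 37.6 and 31.6 CPM. Its share was 49.1%, 46.6%, 54.6% and 51.0%, a mean of 50.3% ± 3.36 (SD, n = 4). Libraries 1 and 2 were below 50% and libraries 3 and 4 above it, the opposite order to XRCC5, but each 95% Wilson interval of FRMD5 contained 50% (the narrowest, in library 3, ran from 49.6% to 59.4%). The most 3' region had 2.15 ± 0.141 times the reads of the region 2769 bases upstream, the second strongest over all libraries (SD, n = 4).

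The even division of FRMD5 depended on joining its 2 pairs of ends. With regions joined within 1 or 2 kb, the distal pair stood alone and its most 3' region took 90.4% of its reads. The 2 regions of the distal pair had, as a sum, 53.5%, 52.5%, 60.4% and 56.3% of the reads of the 4 regions in libraries 1 to 4, a mean of 55.7% ± 3.53 (SD, n = 4). No hg19 annotation was used here, so whether both pairs end the same transcript was not tested.

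By read counts alone, the regions of the upstream FRMD5 pair changed their order between libraries. The more distal region of that pair took 54.7%, 51.8%, 37.2% and 42.6% of the reads of the pair in libraries 1 to 4, a mean of 46.6% ± 8.11 (SD, n = 4). It was the larger of the 2 in libraries 1 and 2 and the smaller in libraries 3 and 4. As a share of the whole locus it had 25.5%, 24.6%, 14.7% and 18.6%. The pair rested on 56 to 156 reads per library. The more distal region and the other held 70 and 58 reads in library 1 and 29 and 27 in library 2. They held 58 and 98 in library 3 and 46 and 62 in library 4. Differences this small may be counting error in some libraries, and the division within the pair was not tested.

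**Figure D3:**
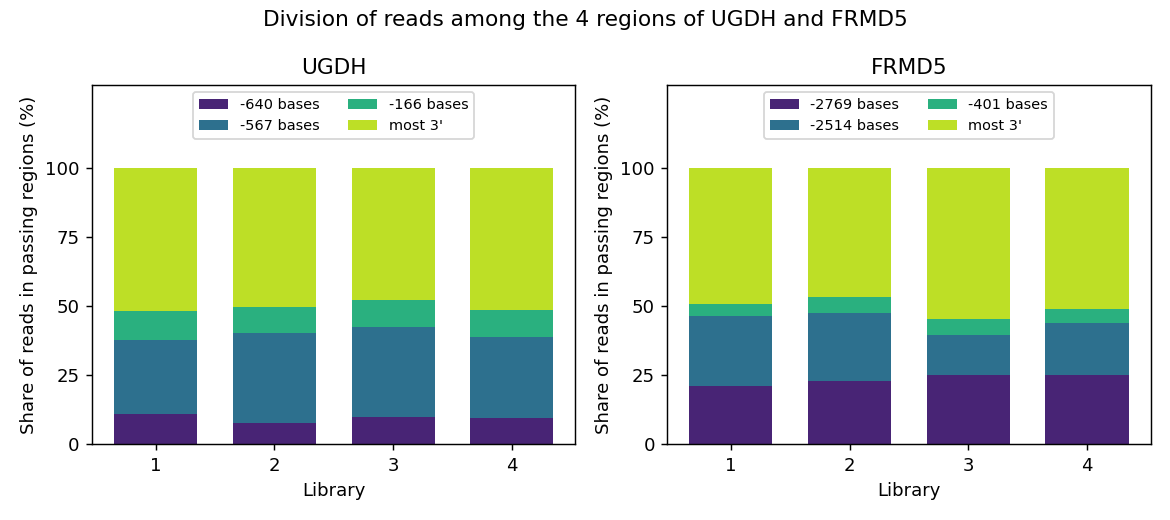
Division of the reads in passing regions among the 4 regions of UGDH and of FRMD5, one stacked bar per library, with the most 3' region on top and the legend giving the distance of each 3' end from it in bases. The top segment of UGDH keeps within 47.7% to 52.0%, and the FRMD5 region 2514 bases upstream is smaller in libraries 3 and 4 (14.7% and 18.6%) than in libraries 1 and 2 (25.5% and 24.6%).

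Neither UGDH nor FRMD5 gave a call between libraries in the same test of the distal share. By Fisher's exact test on thinned counts, 0 of 6 pairs passed for UGDH, with 1 pair at an unadjusted p under 0.05, and 0 of 6 for FRMD5, with 0 pairs under it. The lowest adjusted p-values of that exact test were 0.362 and 0.558. On the unthinned counts the calls were again 0 and 0. The lack of a call does not show steadier shares than at XRCC5, because far fewer reads were tested. In the thinned counts, library 3 minus library 2 was 7.03 points at FRMD5, not called, and -7.04 points at XRCC5, called. The reads tested in libraries 2 and 3 were 118 and 151 at FRMD5, against 2259 and 2131 at XRCC5. Over all reads the largest differences between libraries were 4.26 points at UGDH and 7.96 at FRMD5. These are not the differences that were tested, because the random draw moved the shares of such small counts. In the thinned counts the largest at UGDH was 11.1 points (library 4 minus library 3), which was 3.63 points over all reads. At FRMD5 it was -11.3 points (library 2 minus library 1), which was -2.48 points over all reads. Between libraries 1 and 3 the FRMD5 difference changed sign with the draw: library 3 was 5.48 points higher over all reads, and its value minus that of library 1 was -4.25 points in the thinned counts.

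Each passing region was also tested against the rest of its locus by the same exact test, over up to 13462 regions. On the thinned counts, 0 of 48 tests of the 8 passing regions of UGDH and FRMD5 were called, with 1 at an unadjusted p under 0.05. Of all passing regions, 0.282% were called in the comparison of library 1 with library 2 and 0.0594% in that of library 3 with library 4. Library 1 gave 9.93% against library 3 and 8.72% against library 4, and library 2 gave 15.1% and 14.0% against the same libraries. The thinning decided 1 call. The FRMD5 region 2514 bases upstream had 25.5% of the locus in library 1 and 14.7% in library 3 over all reads, but 15.8% and 15.2% in the thinned counts. Fisher's exact test of this pair gave an adjusted p of 0.00458 on the unthinned counts, where 23.1% of all passing regions were called, 1 on the thinned ones and 0.424 with another draw. Between libraries 2 and 3 the same region gave adjusted p-values of 0.0713, 0.224 and 0.0892 by the same exact tests. The other 7 regions had no call under any of these settings.

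The spread between libraries was set beside the spread that counting alone would give. At XRCC5 the SD of the distal share, 4.23 points, was 5.15 times the 0.820 points of sampling. At FRMD5 the SD of 3.36 points was 0.982 times the sampling value of 3.42, and at UGDH the SD of 1.88 points was 0.662 times 2.83. The median of this ratio over the 2077 loci was 1.53, and 24.4% of them had an SD below the sampling value. The SD itself was at the 67.1st percentile of these loci for XRCC5, the 56.7th for FRMD5 and the 28.0th for UGDH, with a median of 2.91 points. Counting error in points is largest for an even division, for which the members were chosen, and most of these loci divided less evenly. Counting error also grows as reads become fewer. The percentiles of the SD were matched for neither, so they cannot show whether a member varied more than other loci. The chi-square of reads by library, per degree of freedom, was 21.6 at XRCC5 (90.9th percentile), 1.09 at FRMD5 (25.1st) and 0.646 at UGDH (13.1st), against a median of 2.47. This measure grows with depth: XRCC5 had 16865 reads in passing regions (98.7th percentile), UGDH 1452 (45.6th) and FRMD5 1034 (22.4th).

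The level of the whole locus was not part of the choice, apart from the minimum of 100 reads, and differed widely among the 3 genes. Each read marks an end of a transcript, so levels were not divided by length. XRCC5 gave 1019, 1063, 997 and 972 CPM in libraries 1 to 4, a mean of 1013 ± 38.4 (SD, n = 4), the 99.5th percentile of all 17963 loci. UGDH gave 91.3, 86.0, 87.3 and 85.8 CPM, a mean of 87.6 ± 2.57 (SD, n = 4), at the 85.5th percentile. FRMD5 gave 52.8, 54.5, 69.0 and 62.0 CPM, a mean of 59.6 ± 7.43 (SD, n = 4), at the 79.5th percentile. The ranges of the 3 loci over the libraries did not overlap. The total of XRCC5 varied by 3.80% of its mean between libraries and that of UGDH by 2.94%, against 12.5% for FRMD5. At XRCC5 the SD of the total, 38.4 CPM, lay below that of the most 3' region (61.2) and above that of the upstream one (24.3).

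The XRCC5 window also held 4 regions far upstream of the locus, 65006 to 88504 bases from the most 3' end, in the 5' part of the window. The strongest, at chr2:216992288-216992337, was read 408, 206, 117 and 78 times in libraries 1 to 4, which gave 78.3, 95.2, 20.5 and 19.6 CPM. The one at chr2:216982504-216982524 was read 125, 72, 6 and 9 times. The weaker regions at chr2:216986871-216986925 and chr2:217006006-217006022 had 49 and 41 reads in all. In each of these 4 regions the CPM of libraries 1 and 2 lay above those of libraries 3 and 4. How common this order was over all regions of the table was not counted.

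The region at 216992288 was 3.82-fold higher in library 1 than in library 3 (95% interval of counting error, 3.11 to 4.74) and 4.86-fold higher in library 2 than in library 4 (3.73 to 6.39). The region at 216982504 was 22.8-fold higher in library 1 than in library 3 (10.2 to 63.4) and 14.7-fold higher in library 2 than in library 4 (7.34 to 33.5). Together the 4 regions took 9.80%, 11.7%, 2.35% and 2.32% of the reads of the XRCC5 window in libraries 1 to 4. The 95% Wilson intervals of libraries 1 and 2 (9.06% to 10.6% and 10.5% to 13.0%) lay above those of libraries 3 and 4 (1.99% to 2.77% and 1.90% to 2.84%). The mean of 6.54% ± 4.92 (SD, n = 4) therefore describes none of the libraries. The distal share of XRCC5 leaves these reads out. The most 3' region had 2647 of 5889, 1251 of 2605, 2653 of 5834 and 1746 of 3966 window reads in libraries 1 to 4. That was under 50% in every library, so the libraries lay on both sides of 50% only within the passing regions.

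FRMD5 had 1 such region, at chr15:44181001-44181022 and 18047 bases upstream of its most 3' end, and UGDH had none in the table. The FRMD5 region was read 29, 18, 7 and 4 times, or 9.54%, 13.2%, 1.75% and 1.59% of the reads of the window. As at XRCC5, libraries 1 and 2 were high and libraries 3 and 4 low, by 4.54-fold between libraries 1 and 3 (1.95 to 12.3) and 8.29-fold between libraries 2 and 4 (2.73 to 33.7). Unlike the upstream region, the 4 passing regions of FRMD5 differed by no more than 2-fold between any libraries.

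**Figure D4:**
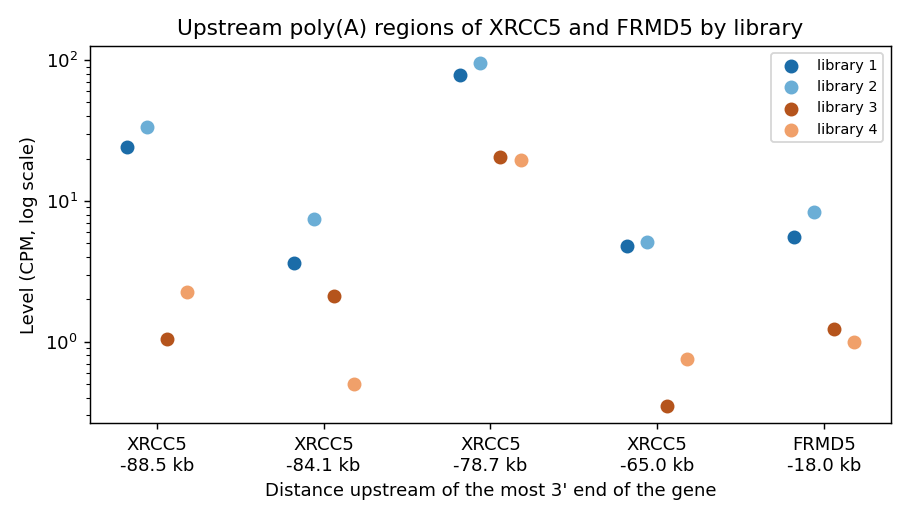
Level (CPM, log scale) of the 4 upstream regions of XRCC5 and the upstream region of FRMD5, one point per library, with the distance from the most 3' end of the gene below. In all 5 regions the points of libraries 1 and 2 lie above those of libraries 3 and 4, for example 78.3 and 95.2 against 20.5 and 19.6 CPM at the strongest XRCC5 region. The share of all regions with this order was not counted.

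The same comparison was made at 2-fold over the whole table. Over 2-fold higher levels in library 1 than in library 3 were found at 4 of the 5 upstream regions and at 0 of the 12 regions of the loci, against 23.1% of all 31081 regions and 8.84% of those with at least 100 reads. Between libraries 2 and 3 it was 5 of 5 and 0 of 12, against 24.0% of all regions and 10.2% of those with at least 100 reads. Between libraries 2 and 4 it was again 5 of 5 and 0 of 12, against 24.3% and 9.66%. Between libraries 1 and 4 it was 5 of 5, and of the 12 only the UGDH region that did not pass, against 23.1% and 8.29%. Of the upstream regions 2 had at least 100 reads summed over the libraries, those at 216982504 and 216992288 in XRCC5. Both were past 2-fold in each of these comparisons. The region at 216982504 reached 100 only through libraries 1 and 2 (125 and 72 reads, against 6 and 9 in libraries 3 and 4). That it passed is therefore no separate support for higher levels in libraries 1 and 2. The region at 216992288 had 117 reads in library 3 alone. The table did not shift in 1 direction only. Of the regions with at least 100 reads, 3.98% were over 2-fold higher in library 3 than in library 1, and 3.87% in library 4 than in library 1. Against library 2 it was 8.25% for library 3 and 8.01% for library 4. In that direction it was 0 of 5 upstream regions and 0 of 12 regions of the loci in each pair. How many regions of the table differed by the larger folds given above was not counted. With 5 regions, 4 of them in a single gene, the upstream regions are not separate observations. Oligo(dT) primers can also anneal to A-rich stretches within a transcript, and whether that occurred at these regions was not tested.

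The 3 loci differed in their surroundings. FRMD5 faced a region of the opposite strand, at chr15:44160601-44160623 on the plus strand, 2331 bases beyond its most 3' region, with 111 reads. The nearest opposite-strand region of UGDH lay 21090 bases away, and that of XRCC5 166271 bases away. Downstream on the same strand the next region was 13341 bases away at XRCC5, 44610 at UGDH and 55760 at FRMD5, so none of the distal shares bordered on the 5 kb joining distance on that side.

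Other loci had distal shares much like those of the members in all 4 libraries. Likeness was the mean absolute difference of the 4 distal shares, over the 1163 loci with exactly 2 passing regions and 100 reads or more in each library. The locus closest to XRCC5, 1.78 points away, lay on chromosome 16, plus strand (88874911 to 88875678), with 51.6%, 53.1%, 50.6% and 46.8% in libraries 1 to 4. The next, 1.99 points away, lay on chromosome 8, minus strand (27667110 to 27667432). Closest to UGDH were loci on the minus strand of chromosome 22 (41994017 to 41996924, 0.916 points) and of chromosome 19 (16756953 to 16757387, 1.52 points). Closest to FRMD5 were loci on the plus strand of chromosome 16 (30995957 to 31000478, 1.57 points) and the minus strand of chromosome 18 (9546774 to 9546950, 2.00 points). These loci were picked for being alike, so their likeness is a description.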

How the data were processed

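Per the file headers, the authors deposited read counts, not normalized, for each poly(A) region in each library, beside its chromosome, start, end and strand. Bowtie2 2.2.5 and hg19 stand in the submitters' processing notes. The sources used here do not give how regions were made from reads or whether duplicates were removed. Positions are printed as deposited, and the 3' end of a minus-strand region was its start.

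Regions were joined into loci, and distal shares, CPM, Wilson intervals, Fisher's exact tests and Benjamini-Hochberg adjustment were computed with Python 3.11.15, numpy 2.4.6 and scipy 1.17.1. Fold intervals are exact binomial ones. Library totals of 5211279, 2163977, 5713530 and 3984278 reads set the precision. The exact test of the distal share was checked on simulated reads for a single pair of libraries. Those reads were independent, so the check does not cover PCR copies or spread between libraries beyond counting error. TMM (edgeR 4.0.16) and DESeq2 1.42.0 size factors were alternatives for levels only, because a single group leaves no contrast for a count model. The members and lists were chosen with earlier results of these data known. The tests of single regions, the upstream shares and the 2-fold comparisons were chosen after seeing the data. The shares of the FRMD5 pairs of ends were not among the planned results either. Named items were the 3 genes with every region of their windows, the 2 loci most like each, and the 2 loci next closest to 50%. The planned gene lists, cell type markers and search for poly(A) signals needed an hg19 genome or annotation and are not analysed here.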

Additional observations from a re-analysis of the deposited data

How the results depend on the processing

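Distal shares, calls between libraries, levels, upstream shares and 2-fold comparisons were recomputed under alternatives. The distal share of XRCC5 moved by less than its SD under all 12 of them (48.0% to 51.2%), as did 11 of 12 for UGDH and 10 of 12 for FRMD5. The exceptions were UGDH with a 10% minimum (62.5%) and FRMD5 with regions joined within 1 kb (90.4%) or within 2 kb (90.4%), where weak or distant regions leave the locus. The number of library pairs called at XRCC5 was 4 on unthinned counts and 2 with another random draw, against 3. It ranged from 1 to 2 when a library was left out, which also leaves 3 pairs in place of 6: it was 1 without library 2, 1 without library 4, and 2 without library 1 or library 3. UGDH and FRMD5 stayed at 0 pairs by Fisher's exact test under all 8 alternatives each. Levels moved by less than their SD with TMM, DESeq2 size factors, totals without regions of 10 bases or fewer, and each library left out. Leaving 1 of 4 libraries out cannot move a mean by as much as its SD. That alternative could therefore not fail for levels, nor for distal shares while the same regions pass. TMM and DESeq2 raised the totals of libraries 1 and 2 and lowered those of libraries 3 and 4. Such opposite changes leave a mean of 4 libraries almost in place (1012.7 CPM with TMM against 1012.9 at XRCC5), so they were a weak check of levels. The other joining distances left the distal shares of XRCC5 and UGDH exactly as they were, so the counts of unmoved alternatives overstate how far these shares were tried. The upstream share ranged from 4.82% to 7.95% for XRCC5 and from 4.29% to 8.17% for FRMD5 with a library left out, an alternative chosen after seeing the data, as were those that follow. Of the 48 tests of single UGDH and FRMD5 regions, 1 was called on unthinned counts and 0 with another draw. Leaving a library out only dropped some of the 48 tests, of which 0 were called, so it had to give 0 and checks nothing. Of 20 comparisons of upstream regions, 19 were over 2-fold, also with TMM, DESeq2 size factors and totals without narrow regions. With a library left out it was 9 to 10 of the 10 that remain. With at least 100 reads it was 8 of 8, but the region at 216982504 reached that minimum only through libraries 1 and 2. Of 48 comparisons of the 12 regions of the loci, 1 was over 2-fold, with at least 100 reads 0 of 40, and with a library left out 0 to 1. For these 2-fold counts, too, leaving a library out only drops comparisons and is no separate check. No paired analysis was possible because the series has a single group. Depth limits FRMD5 and UGDH most, with 118 and 179 reads in library 2.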

Other observations

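In 23 values (the distal share and level of each locus and the level of each of the 17 regions), 0 libraries stood far from the rest by Dixon's criterion. Chance alone gives about 1 in 20. The criterion looks for a single library apart from the rest. It cannot flag libraries 1 and 2 standing apart from libraries 3 and 4, as at the upstream regions. The values also overlap, since the level of a locus is the sum of its regions.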
